A study of Mus musculus with 12 samples.

Results

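Liver RNA was compared between 8 mice that had lost weight and 4 obese mice that had not, to describe which transcripts moved with weight loss whichever way it was achieved. All mice were male C57BL/6 mice (C57BL/6J in the study's methods) with diet-induced obesity, 21 weeks of age, with no genetic modification named in the labels, and all had undergone an operation. The VSG group had vertical sleeve gastrectomy, an operation that removes most of the stomach. The Sham-WM group had a sham operation and was then given restricted food so that its weight followed that of the VSG mice. The Sham-Ad lib group had the sham operation and returned to unrestricted high fat diet. Members of the comparison were chosen by treatment alone, and all 12 of the 12 libraries in the series entered it: 4 VSG, 4 Sham-WM and 4 Sham-Ad lib. Each library came from the liver of a separate mouse. The mean of the VSG and Sham-WM group means, each with equal weight, was set against the Sham-Ad lib mean for 13054 genes.

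The liver stores surplus energy as triglyceride in lipid droplets, exports it in lipoproteins, and breaks it down by lipase action and mitochondrial fatty acid oxidation. In obesity these droplets accumulate as hepatic steatosis, and genes that coat droplets, such as those of the CIDE and perilipin families, are expressed at higher levels than in lean liver. Hepatic transcripts also follow feeding time through the circadian clock, in which Arntl and Clock drive E-box genes whose products, among them Nr1d1 and Dbp, regulate further targets.

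The libraries held between 15122520 and 19384076 counts on genes, and replicates of a group had a Spearman rho of at least 0.963. Values are CPM, that is counts relative to library size after TMM scaling, unless stated otherwise, and SE is the standard error of a log2 fold change in edgeR's fit. Libraries are named by the animal number in the library's name and in the sample title. Another label field pairs titles with libraries differently, and the closing section gives the result of that grouping. The index numbers of the libraries form a separate block for each group, so a batch that followed them and the treatment cannot be told apart. The study's methods state that batch variation in the surgical cohorts was removed with RUVSeq. The main fit here held no such factor, and the closing section gives counts with RUVs and RUVr factors. VSG libraries varied more than the others: the median SD of log2 CPM over genes was 0.30 in VSG, 0.20 in Sham-WM and 0.20 in Sham-Ad lib. VSG libraries also held more RNA of immune cell markers, as given below. In bulk liver RNA, fewer cells of a type and less RNA per cell cannot be told apart.

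By edgeR's quasi-likelihood test at an adjusted p under 0.05, 86 genes differed between the weight-loss mean and Sham-Ad lib, 0.659% of the genes tested. Of these, 27 were higher (0.207%) and 59 lower (0.452%) after weight loss. At an unadjusted p under 0.05 the count was 1923 genes, 14.7% of those tested. The mean alone does not say whether both treatments contributed. A change was therefore counted as shared only when the gene was called by the mean, had the same sign after both treatments, and had none of its 8 weight-loss libraries within the range of the 4 Sham-Ad lib libraries. This left 36 genes, 0.276% of those tested, with 26 lower (0.199%) and 10 higher (0.0766%). Without regard to the test, the 8 and the 4 libraries did not overlap for 152 genes (1.16%), of which 89 were lower (0.682%) and 63 higher (0.483%), so 116 non-overlapping genes were not called. The number of calls depended on single libraries. Without the Sham-Ad lib library 6F the test called 13 genes, 4 of them shared, and without 3F 17 genes, 6 of them shared. It called between 33 and 48 genes without 10F, 2F, 15F, 16F or 1F, and at least 64 without each of the other 5 libraries. DESeq2 called 398 genes. With the 8 weight-loss libraries fitted as 1 group, so that the difference between treatments counted as spread, edgeR called 0 genes and 1261 had an unadjusted p under 0.05. Grouping by the other label field gave 0 called genes and 741 at an unadjusted p under 0.05.

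Both treatments were measured against the same 4 Sham-Ad lib libraries, and their fold changes are therefore given side by side. Taken singly, Sham-WM differed from Sham-Ad lib in 912 genes (6.99%), 3.53% higher and 3.45% lower, and VSG in 98 (0.751%), 0.467% higher and 0.283% lower. Of the 86 genes, 78 also passed the test in Sham-WM but not in VSG, 3 in VSG but not in Sham-WM and 5 in both. Among the 86 genes, the median size of the log2 fold change was 1.21 after Sham-WM and 0.41 after VSG. Among the 36 shared genes the medians were 1.09 and 0.66. The direct test of VSG minus Sham-WM, which does not use the Sham-Ad lib mean, was passed by 54 of the 86 genes (62.8%), against 26.9% of all genes tested, and in all 54 the change was larger in size after Sham-WM. It was passed by 13 of the 36 shared genes. For the 54 genes the median sizes were 1.35 after Sham-WM and 0.29 after VSG, and for the other 32 they were 1.07 and 0.96. A stricter joint test, which asks that each treatment differ from Sham-Ad lib by itself, called 0 genes in edgeR. Its lowest adjusted p was 0.867, 349 genes (2.67%) had an unadjusted joint p under 0.05, and DESeq2 called 12 genes by the same test.

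**Figure D1:**
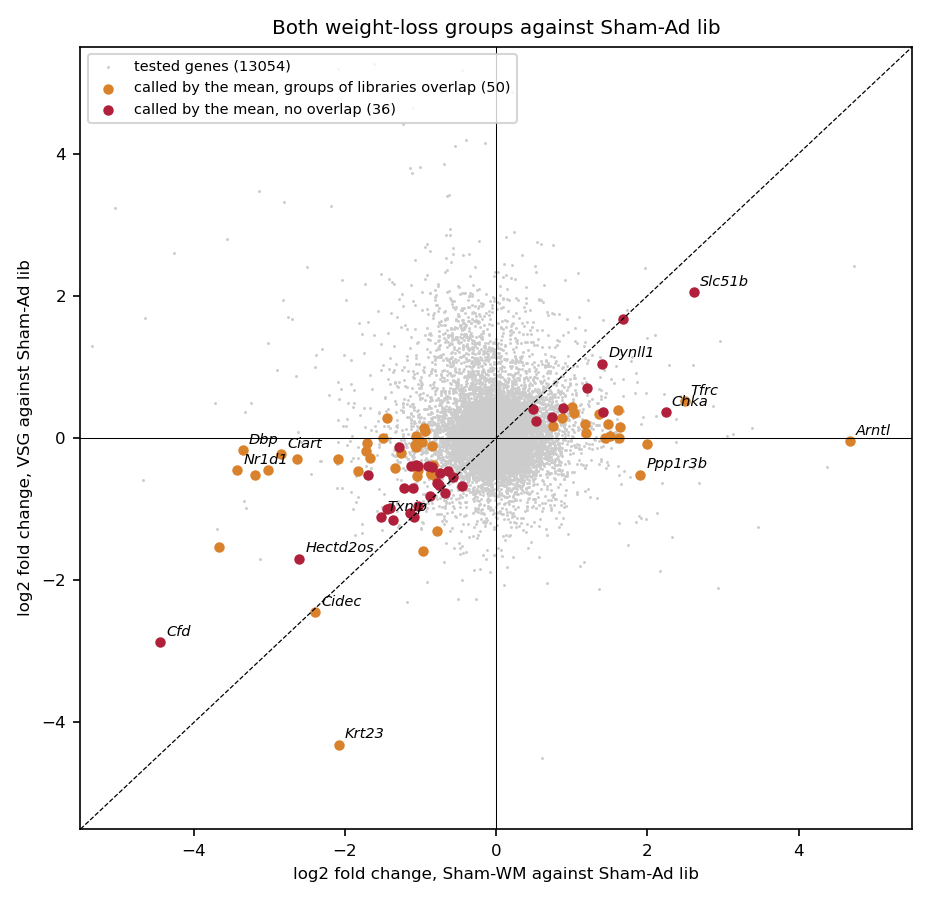
Log2 fold change against Sham-Ad lib after Sham-WM (x axis) and after VSG (y axis) for the 13054 tested genes (grey), with the 36 shared genes in red and the other 50 genes called by the mean in orange; the dashed line marks equal change, and 9 genes lie outside the axes. Most coloured points lie nearer the horizontal axis than the dashed line, Cfd and Cidec fall far out in the lower left, and Arntl, Dbp, Nr1d1 and Ciart lie near 0 on the VSG axis.

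The shared fall with the largest fold change was in Cfd, which encodes complement factor D, a serine protease of the alternative complement pathway known as adipsin in fat tissue. Cfd (ENSMUSG00000061780) lies on chromosome 10 from 79890853 to 79892655 of mm10. Its level was 10.2, 8.69, 6.87 and 5.33 CPM in the Sham-Ad lib libraries 3F, 4F, 6F and 10F. It was 0.764, 0.358, 0.153 and 0.113 CPM in the Sham-WM libraries 2F, 9F, 15F and 16F, and 1.79, 0.766, 1.58 and 0.171 CPM in the VSG libraries 1F, 8F, 11F and 18F. Every weight-loss library lay below every Sham-Ad lib library. The group means were 7.78 ± 2.13 CPM in the Sham-Ad lib, 0.347 ± 0.298 in the Sham-WM and 1.08 ± 0.749 in the VSG libraries (SD, n = 4), and the log2 fold change of the weight-loss mean was -3.66 (SE 0.43, adjusted p = 0.00251). It was -4.44 after Sham-WM and -2.87 after VSG, and VSG minus Sham-WM was 1.57 with a 95% interval of 0.21 to 2.93 (adjusted p = 0.0804).

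Because Cfd and Cidec are also transcripts of fat cells, the adipocyte marker list was examined beside them. Of its 10 genes, 5 passed the filter on low counts. The 2 called were Cfd and Cidec themselves, both lower, where 0.452% of all genes tested were. Because these 2 prompted the look, their number is no separate evidence about the list. Car3, Fabp4 and Lipe were tested and not called. Lep, the leptin gene, had 0 counts in every library, and Adipoq, Plin1 and Retn, which define adipocytes, had at most 1 count in any library. Aqp7, a glycerol channel of fat cells, reached 9 counts in the Sham-Ad lib libraries and was at 0 in all Sham-WM libraries and at most 1 in VSG. The fatty acid binding protein Fabp4 had between 91 and 219 counts in every library. Cfd itself had 85 to 183 counts in Sham-Ad lib, 2 to 15 in Sham-WM and 3 to 30 in VSG libraries. The summed level of all 10 genes of the list was 2744 to 4235 CPM in the Sham-Ad lib, 4024 to 5909 in the Sham-WM and 1083 to 2954 in the VSG libraries, most of it from Car3, a carbonic anhydrase that liver also expresses.

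Lipid droplet genes gave 3 called members of 25 tested, all lower, where 0.452% of all genes tested were called lower. The median log2 fold change of the 25 genes was -0.16, against 0.02 over all genes tested. Fitm2, which encodes an endoplasmic reticulum protein needed for droplet formation, was the shared one. It stood at 84.2, 55.1, 90.0 and 81.3 CPM in the Sham-Ad lib libraries, at 51.2, 50.7, 43.3 and 49.7 CPM in Sham-WM and at 39.8, 46.5, 45.6 and 49.5 CPM in VSG. The groups did not overlap, although library 4F of Sham-Ad lib came close. Its log2 fold change was -0.72 (SE 0.12, adjusted p = 0.0176), with -0.67 after Sham-WM and -0.77 after VSG. VSG minus Sham-WM was -0.10 for Fitm2, with a 95% interval of -0.40 to 0.20.

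Cidec, a droplet fusion protein abundant in steatotic liver, fell in the mean, with log2 fold changes of -2.39 after Sham-WM and -2.44 after VSG, but did not meet the rule for a shared change. Its levels were 9.21, 31.6, 15.5 and 3.33 CPM in the Sham-Ad lib, 4.23, 2.20, 1.89 and 3.04 CPM in the Sham-WM and 2.33, 3.73, 3.69 and 1.25 CPM in the VSG libraries. The lowest Sham-Ad lib library, 10F, lay within the range of the weight-loss libraries, and the other 3 lay above it. The log2 fold change of Cidec was -2.42 (SE 0.44, adjusted p = 0.0322), and VSG minus Sham-WM was -0.05 with a 95% interval of -1.28 to 1.18. Pnpla2, the triglyceride lipase ATGL, was the other called member and differed between the treatments. It had 91.1 to 94.6 CPM in the Sham-Ad lib, 39.6 to 56.9 in the Sham-WM and 72.9 to 100 in the VSG libraries, with log2 fold changes of -1.07 after Sham-WM and -0.13 after VSG. In all, 9 of the 25 members were lower at an unadjusted p under 0.05, where 7.29% of all genes tested were, and 6 of these were not called. The 6 were the perilipins Plin2 (-0.52) and Plin4 (-1.32), Cidea (-1.75), the lipase Lipe (-0.68), the Pnpla2 inhibitor G0s2 (-0.96) and the nuclear receptor Pparg (-0.44). These log2 fold changes of the mean do not say whether both treatments contributed. In the separate tests of the treatments, 6 of the 25 members were called lower after Sham-WM and 1 after VSG. Lipe had 312 to 479 counts in the Sham-Ad lib, 141 to 314 in the Sham-WM and 276 to 495 in the VSG libraries.

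Lipoprotein genes gave 1 called member in each direction out of 23 tested, where 0.207% of all genes tested were called higher and 0.452% lower. Apoa4, an apolipoprotein of triglyceride-rich particles, had 708, 750, 652 and 467 CPM in Sham-Ad lib libraries. It had 359, 266, 268 and 272 CPM in Sham-WM and 324, 166, 429 and 322 CPM in VSG. The nearest pair of libraries was 10F of Sham-Ad lib and 11F of VSG, and no libraries overlapped. The log2 fold change was -1.10 (SE 0.20, adjusted p = 0.0322), and VSG minus Sham-WM was 0.09 with a 95% interval of -0.42 to 0.61. Tm6sf2, which takes part in loading lipid onto very low density lipoprotein, had 22.8 ± 0.962 CPM in the Sham-Ad lib libraries, 38.2 ± 6.92 in Sham-WM and 28.1 ± 1.46 in VSG (mean ± SD, 4 mice each). Its log2 fold change was 0.52 (adjusted p = 0.046, and 0.16 after VSG alone), and VSG minus Sham-WM was -0.44 (adjusted p = 0.0177).

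Of all genes tested 0.452% were called lower, and of 30 tested genes of fatty acid oxidation and ketogenesis Cpt1a was the one called. It encodes the carnitine palmitoyltransferase that admits long-chain fatty acids to mitochondria. Its levels were 877, 731, 866 and 740 CPM in the Sham-Ad lib, 492, 603, 393 and 419 CPM in the Sham-WM and 404, 656, 454 and 527 CPM in the VSG libraries. All 8 weight-loss libraries were lower than all 4 Sham-Ad lib libraries. The log2 fold change of Cpt1a was -0.70 (SE 0.15, adjusted p = 0.0487), with -0.75 after Sham-WM and -0.65 after VSG and a VSG minus Sham-WM interval of -0.27 to 0.47. At an unadjusted p under 0.05, Ppara (-0.76), the receptor that drives oxidation genes, was among those also lower. The median of the list was -0.13 in the mean, -0.02 after Sham-WM and -0.28 after VSG. In the mean 27 of 30 genes lay below 0, where 53.2% of all genes tested lay above it. At an unadjusted p, 5 of 30 were lower and 1 higher, where 7.29% and 7.44% of all genes tested were. These counts of the mean do not say whether both treatments contributed. By the direct test 9 of the 30 genes were lower in VSG than in Sham-WM, where 11.9% of all genes tested were.

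**Figure D2:**
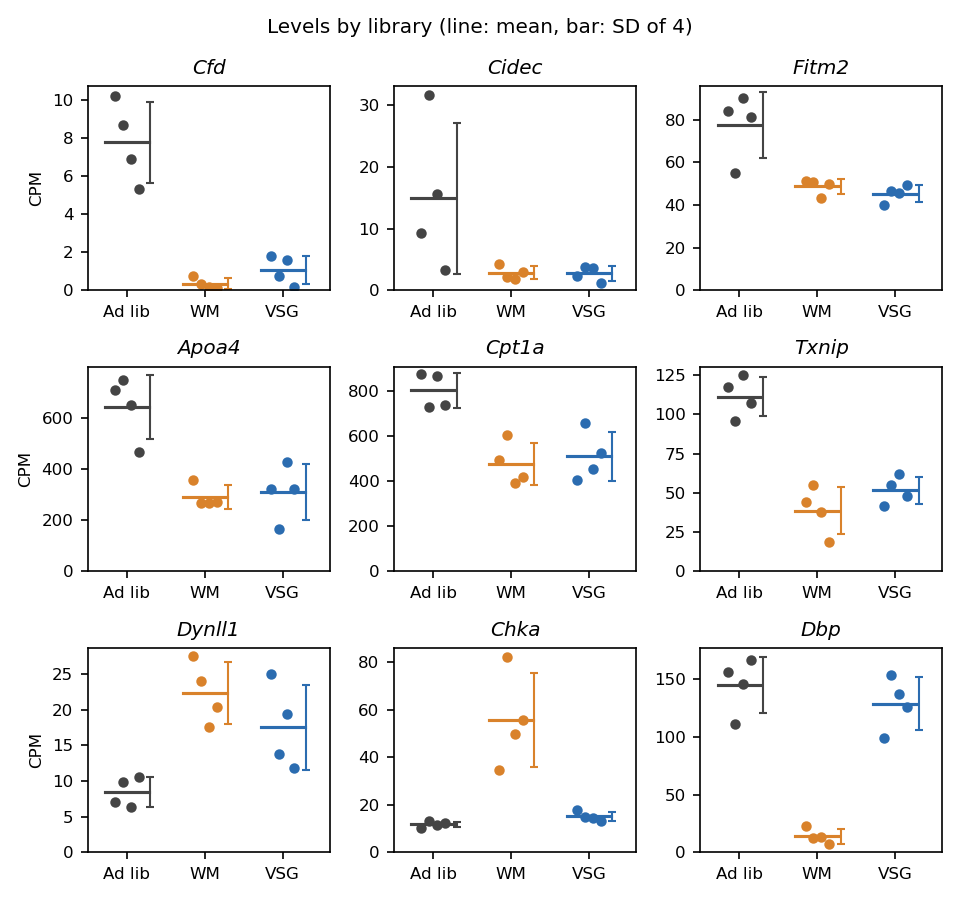
CPM in each library (points) with the group mean (line) and SD (bar, n = 4) for 9 called genes by group, each y axis starting at 0. Cfd, Fitm2, Apoa4, Cpt1a and Txnip lie lower in every weight-loss library, Cidec has 1 low Sham-Ad lib library, Dynll1 and Chka lie higher in every weight-loss library, and Dbp is low in Sham-WM only.

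Txnip, an inhibitor of thioredoxin whose transcript follows glucose supply, fell in the mean and met the rule for a shared change. It had 117, 95.6, 125 and 107.4 CPM in the Sham-Ad lib, 43.9, 54.9, 37.6 and 18.6 CPM in the Sham-WM and 41.7, 54.8, 61.7 and 48.2 CPM in the VSG libraries. The log2 fold change was -1.31 (SE 0.20, adjusted p = 0.0148), made of -1.52 after Sham-WM (adjusted p = 0.00347) and -1.11 after VSG (adjusted p = 0.0513), and VSG minus Sham-WM was 0.41 with a 95% interval of -0.11 to 0.94. Slc23a2, which encodes a sodium-dependent vitamin C transporter, was among the genes with the lowest adjusted p (0.00251). It stood at 45.5, 52.2, 42.9 and 45.4 CPM in the Sham-Ad lib, 17.5, 24.5, 18.4 and 19.3 CPM in the Sham-WM and 23.1, 34.8, 27.1 and 29.4 CPM in the VSG libraries. Its fall was larger after Sham-WM (log2 fold change -1.22) than after VSG (-0.70), with a difference of 0.52 (95% interval 0.22 to 0.82, adjusted p = 0.0168). Cfd, Hectd2os and Slc23a2 were called in each of the 12 fits that left out 1 library.

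For the other named genes that fell, VSG minus Sham-WM did not pass the test, and its point values lay between 0.06 (Tppp) and 0.91 (Hectd2os). Hectd2os, a non-coding RNA opposite Hectd2 on chromosome 19 from 36614052 to 36705641, had 26.6 ± 15.5 CPM in the Sham-Ad lib, 4.37 ± 0.847 in the Sham-WM and 8.24 ± 3.48 in the VSG libraries (SD, n = 4). Its log2 fold change was -2.15 (adjusted p = 0.00939), and the lowest Sham-Ad lib library, at 13.6 CPM, lay above the highest weight-loss library, at 12.4 CPM. The strand setting of the counting is not given in the sources used here, so reads of Hectd2os and Hectd2 may not be separable. Unc5b, a netrin receptor, stood at 10.8 to 19.1 CPM in the Sham-Ad lib, 3.88 to 6.11 in the Sham-WM and 3.53 to 7.76 in the VSG libraries, with a log2 fold change of -1.26 (adjusted p = 0.0176).

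The remaining named genes that fell have varied roles. Tlr5, the receptor for bacterial flagellin, had 11.5 to 22.6 CPM in the Sham-Ad lib, 5.96 to 10.9 in the Sham-WM and 7.22 to 10.2 in the VSG libraries, a log2 fold change of -0.99 (adjusted p = 0.039). Gbp10, an interferon-inducible guanylate-binding protein, had a log2 fold change of -1.19 (adjusted p = 0.039). The 30 tested genes of the interferon list gave 0 called by edgeR and 2 lower at an unadjusted p, where 7.29% of all genes tested were. Mcm8, a DNA helicase of homologous recombination, and Tppp, a tubulin polymerization protein, had log2 fold changes of -1.22 and -0.85 (adjusted p = 0.0211 and 0.0302). Mcm8 only just met the rule for a shared change. It had 2.196 CPM in library 10F of Sham-Ad lib and 2.195 CPM in library 8F of VSG. Lrit1, a leucine-rich repeat membrane protein, completed the 11 named genes with -0.90 (adjusted p = 0.0203). Outside the naming rule and chosen after its values were seen, Mtor, the growth-regulating kinase, had 66.9 ± 5.08 CPM in the Sham-Ad lib, 43.1 ± 3.31 in the Sham-WM and 48.5 ± 8.83 in the VSG libraries. Mtor met the rule for a shared change, with a log2 fold change of the mean of -0.55 (adjusted p = 0.039). It was -0.64 after Sham-WM and -0.46 after VSG, the latter with an adjusted p of 0.0671.

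Shared rises were fewer. By the direct test 5 of the 8 named ones were larger after Sham-WM, where 11.9% of all genes tested were lower in VSG than in Sham-WM. After VSG alone, edgeR's adjusted p for the 8 lay between 0.053 (Dynll1) and 0.302 (Chka). Dynll1, a light chain of the dynein motor, rose in the mean. Its levels were 7.09, 9.87, 6.33 and 10.6 CPM in the Sham-Ad lib, 27.6, 24.0, 17.5 and 20.3 CPM in the Sham-WM and 25.0, 13.8, 19.4 and 11.8 CPM in the VSG libraries. The log2 fold change was 1.22 (SE 0.22, adjusted p = 0.0291), made of 1.40 after Sham-WM (adjusted p = 0.00476) and 1.05 after VSG (adjusted p = 0.053), and VSG minus Sham-WM was -0.36 with a 95% interval of -0.86 to 0.15. Slc16a6, a monocarboxylate transporter that exports ketone bodies from hepatocytes, rose in the mean, from 3.32 ± 0.414 CPM to 7.62 ± 0.950 in Sham-WM and 5.44 ± 1.56 in VSG, with a log2 fold change of 0.95 (adjusted p = 0.039, and 0.0812 after VSG alone). Lamtor1, a lysosomal anchor of the mTORC1 pathway, had the smallest difference between treatments of the 8, with log2 fold changes of 0.48 after Sham-WM and 0.40 after VSG (interval of the difference -0.29 to 0.13). Slc16a6 overlaps Arsg and Amz2, and Lamtor1 overlaps Lrrc51, all on the opposite strand.

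Chka shows how a gene can meet the rule with unequal changes. It encodes choline kinase, the first enzyme of phosphatidylcholine synthesis from choline. Its levels were 10.3, 13.1, 11.4 and 12.2 CPM in the Sham-Ad lib, 34.9, 82.4, 49.7 and 55.7 CPM in the Sham-WM and 17.7, 15.1, 14.5 and 13.4 CPM in the VSG libraries. The VSG libraries lay just above the Sham-Ad lib range and the Sham-WM libraries far above it. The log2 fold changes were 2.24 after Sham-WM and 0.37 after VSG, the latter with an adjusted p of 0.302. The difference of -1.87 (95% interval -2.33 to -1.42) had an adjusted p of 0.000167. Itga5, the fibronectin receptor subunit, Ddx39, an RNA helicase, and Mapre1, a microtubule end-binding protein, also rose more after Sham-WM, though less unequally than Chka. Their log2 fold changes were 1.42, 0.89 and 0.53 after Sham-WM and 0.36, 0.43 and 0.23 after VSG. Their adjusted p-values after VSG alone were 0.185, 0.107 and 0.136 by edgeR. In Ddx39 the Sham-WM libraries, at 14.3 to 20.7 CPM, and the VSG libraries, at 11.7 to 15.1 CPM, overlapped. The Ddx39 gene overlaps Adgre5 on the opposite strand.

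A further 4 genes filled the higher list from those that did not pass the test, with an unadjusted p under 0.05 and no overlap between the 8 and the 4 libraries. Cyp26a1, which degrades retinoic acid, had 0.753 to 1.51 CPM in the Sham-Ad lib, 3.77 to 77.2 in the Sham-WM and 1.53 to 12.5 in the VSG libraries, and a log2 fold change of 3.58 with an adjusted p of 0.0877. Hdhd3, Fam213b and Nbeal2 had log2 fold changes of 0.87, 0.87 and 0.90 (adjusted p = 0.138, 0.171 and 0.0713). Slc51b, a subunit of the basolateral bile acid exporter OSTalpha-OSTbeta, was called and shared but too low for the naming rule, at 0.209 ± 0.115 CPM in the Sham-Ad lib, 1.33 ± 0.602 in the Sham-WM and 0.901 ± 0.404 in the VSG libraries (log2 fold change 2.34, adjusted p = 0.0452). Its partner Slc51a had 0 counts in every library.

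Calls on single genes also depended on the libraries. Dynll1 was called in 8, Chka, Fitm2 and Txnip in 10 and Unc5b in 11 of the 12 fits that left out 1 library, and their highest adjusted p-values, each without 6F, were 0.124, 0.0656, 0.0999, 0.0767 and 0.097. Apoa4, Gbp10, Tlr5 and Cidec were called in 5 fits, Lamtor1 in 3, Cpt1a in 2, and Tm6sf2 and Mapre1 in 1. Pnpla2, Ddx39 and Tef were called in 4 fits, and Slc16a6, Slc51b, Npc1, Stip1 and Tfrc in 3. Gabarapl1 and Map1lc3b were called in 2 fits and Ppp1r3b in 1. The genes in this paragraph each kept their direction in every one of the 12 fits. The log2 fold change of Cpt1a ranged from -0.80 to -0.65, that of Apoa4 from -1.25 to -1.02 and that of Cidec from -2.76 to -1.75, the last without 4F.

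**Figure D3:**
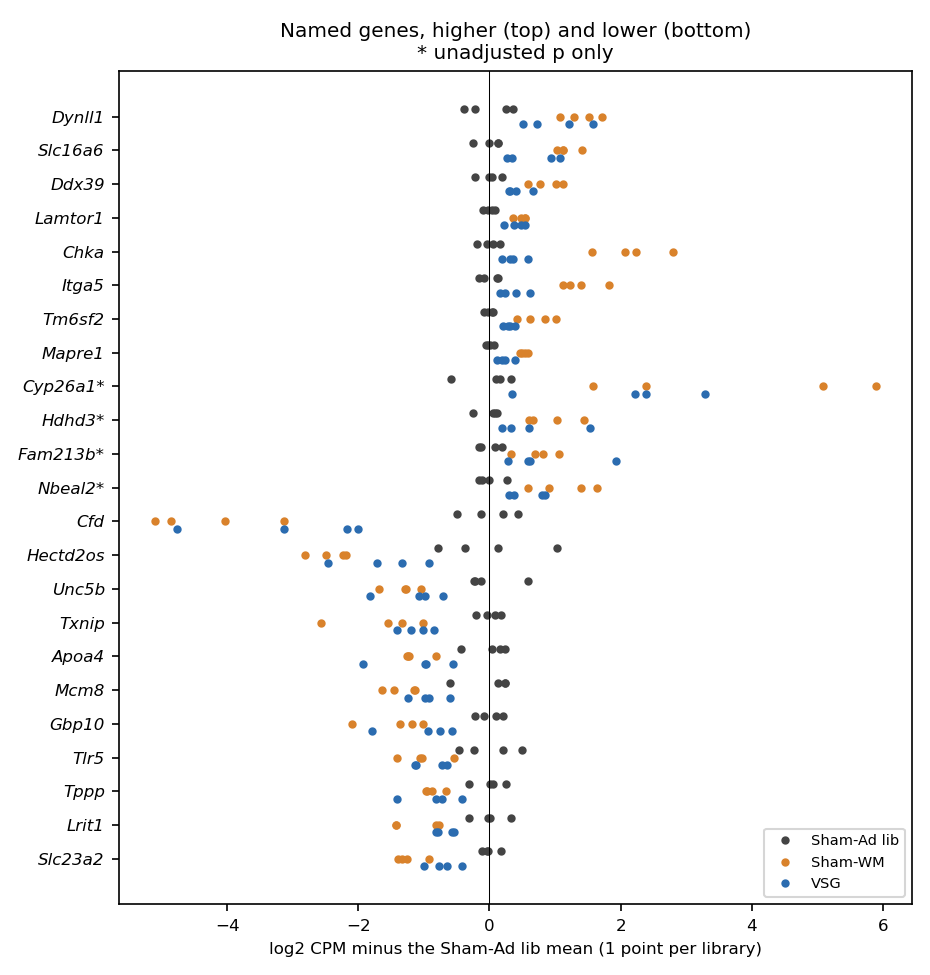
Log2 CPM of the 23 named genes in each of the 12 libraries, relative to the Sham-Ad lib mean (x axis), 12 higher above and 11 lower below, with an asterisk on the 4 higher genes that did not pass the test. The VSG points of Chka, Itga5 and Mapre1 lie nearer to 0 than their Sham-WM points, and both groups of points lie together for Apoa4 and Tppp.

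The genes with the lowest adjusted p of all included clock genes that did not meet the rule for a shared change. Of 16 tested clock genes 5 were called, Arntl higher and Nr1d1, Nr1d2, Bhlhe41 and Ciart lower, and of 12 clock output genes Dbp and Tef were called, both lower. Of all genes tested, 0.207% were called higher and 0.452% lower. Arntl, the activating partner of Clock also known as Bmal1, stood at 0.558, 1.61, 0.703 and 0.941 CPM in the Sham-Ad lib, 11.8, 29.7, 25.9 and 31.1 CPM in the Sham-WM and 1.02, 1.02, 0.452 and 1.14 CPM in the VSG libraries. Dbp, a transcription factor driven by the clock, had 156, 110.9, 146 and 166 CPM in the Sham-Ad lib, 23.1, 12.7, 13.0 and 7.60 CPM in the Sham-WM and 98.5, 153, 137 and 125 CPM in the VSG libraries. In both genes the Sham-WM libraries stood apart and the VSG libraries overlapped Sham-Ad lib. The log2 fold changes of the weight-loss mean, 2.32 for Arntl (adjusted p = 0.0148) and -1.76 for Dbp (adjusted p = 0.00251), thus averaged 4.68 and -0.05 in Arntl, and -3.35 and -0.17 in Dbp, after Sham-WM and VSG. VSG minus Sham-WM was -4.72 for Arntl (95% interval -5.54 to -3.91) and 3.18 for Dbp (95% interval 2.58 to 3.78).

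Nr1d1 and Ciart, repressors within the clock, followed Dbp. Nr1d1 had 74.4 to 137 CPM in the Sham-Ad lib, 6.58 to 13.3 in the Sham-WM and 36.5 to 113.6 in the VSG libraries, and Ciart had 14.7 to 20.3, 1.73 to 3.47 and 12.2 to 17.1 CPM in the same order. Bhlhe41 had 3.97 to 7.65, 0.408 to 1.43 and 3.64 to 6.38 CPM. Tef was nearer to a shared fall, with log2 fold changes of -0.84 after Sham-WM and -0.37 after VSG, but VSG libraries reached 192 CPM and the lowest Sham-Ad lib library had 178. Nr1d1 overlaps Thra, Dbp overlaps Sphk2 and Ciart overlaps C920021L13Rik, all on the opposite strand.

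Because clock genes had some of the lowest adjusted p-values of the mean, promoters of 3 of them, chosen because they hold a motif searched here, are shown from RefSeq (GRCm38.p6), from 250 bases before to 50 bases after the annotated start, on the gene's strand, 5′ to 3′. Capitals mark an E-box (CACGTG) in Ciart and Bhlhe41 and a ROR element (TAGGTCA, searched on both strands) in Arntl. Ciart lies at chr3:95882179-95882478 (minus strand), Bhlhe41 at chr6:145865371-145865670 (minus strand) and Arntl at chr7:113207261-113207560 (plus strand). A second Arntl window in the table, at chr7:113207215-113207514, ends before the element and held 0 of the motifs searched.
Ciart: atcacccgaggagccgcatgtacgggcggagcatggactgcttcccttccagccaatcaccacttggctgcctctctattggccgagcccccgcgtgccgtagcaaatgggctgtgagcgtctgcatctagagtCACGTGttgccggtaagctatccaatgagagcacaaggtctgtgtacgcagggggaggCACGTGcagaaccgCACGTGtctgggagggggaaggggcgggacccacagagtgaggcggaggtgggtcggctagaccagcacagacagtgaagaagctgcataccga
Bhlhe41: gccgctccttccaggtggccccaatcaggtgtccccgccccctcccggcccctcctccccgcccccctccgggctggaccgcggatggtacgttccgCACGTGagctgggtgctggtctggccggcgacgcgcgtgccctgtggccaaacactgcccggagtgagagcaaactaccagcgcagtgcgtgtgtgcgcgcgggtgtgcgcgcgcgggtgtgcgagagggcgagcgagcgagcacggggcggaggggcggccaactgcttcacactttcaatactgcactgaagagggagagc
Arntl: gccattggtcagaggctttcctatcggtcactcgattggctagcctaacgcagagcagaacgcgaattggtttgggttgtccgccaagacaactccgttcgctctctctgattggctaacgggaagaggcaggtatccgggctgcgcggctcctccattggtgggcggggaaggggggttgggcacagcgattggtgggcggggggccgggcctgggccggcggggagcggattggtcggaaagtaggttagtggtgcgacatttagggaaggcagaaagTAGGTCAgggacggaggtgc
In Ciart the E-boxes start at -116, -58 and -44 from the start, in Bhlhe41 at -153, and in Arntl the ROR element lies at 31 after it. Of the 7 called genes of the clock and clock output lists, all with a promoter in the table, 3 held an E-box (Bhlhe41, Ciart and Tef) and 1 the ROR element, and Dbp, Nr1d1 and Nr1d2 held neither. A gene counted as holding a motif when any of its windows did. Across all 27025 genes with a promoter in the table, 8.09% held the E-box and 2.97% the ROR element. Among genes called but not shared, the E-box was in 7 of the 39 with a promoter (17.9%) and the ROR element in 3. Of shared genes that fell, 1 of 21 promoters held an E-box (Mcm8), and of shared genes that rose 2 of 6 (Lamtor1 and Mapre1), with 0 ROR elements in either set. The cyclic AMP response element (TGACGTCA) and the D-box (TTATGTAA) were in 0 promoters of called genes. Across all genes with a promoter in the table, 2.03% and 1.11% held them, so 0 among so few promoters lies near those shares.

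Members of the heat shock and autophagy lists were called as well, and most of these changed more after Sham-WM. Of 17 tested heat shock genes, the chaperone Hsp90aa1 and its co-chaperone Stip1 were called, both higher, where 0.207% of all genes tested were, and the median of the list was 0.42 with 16 of 17 genes above 0. Hsp90aa1 had 132 to 175 CPM in the Sham-Ad lib, 333 to 561 in the Sham-WM and 166 to 276 in the VSG libraries, and VSG minus Sham-WM was -1.22 (95% interval -1.63 to -0.82). Of 25 autophagy and lysosome genes, 3 were called, all lower, where 0.452% of all genes tested were. Gabarapl1 and Map1lc3b, both of the family that coats autophagosomes, had log2 fold changes of -1.50 and -0.94 after Sham-WM and of 0.00 and 0.10 after VSG, while Npc1, the lysosomal cholesterol exporter, had -0.86 and -0.49. Map1lc3b overlaps Zcchc14 and Npc1 overlaps Rmc1, both on the opposite strand.

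Single called members, both higher where 0.207% of all genes tested were, came from the lists of iron handling and glycogen metabolism. Tfrc, the transferrin receptor, had 10.2 to 24.7 CPM in the Sham-Ad lib, 49.2 to 129 in the Sham-WM and 17.7 to 30.3 in the VSG libraries, with a log2 fold change of the mean of 1.51 (adjusted p = 0.0452). Ppp1r3b, which directs phosphatase to glycogen, shows a called mean made of opposite values. It had 159 to 240 CPM in the Sham-Ad lib, 595 to 791 in the Sham-WM and 102 to 156 in the VSG libraries, with log2 fold changes of 1.90 and -0.51 and a difference of -2.42 (95% interval -2.79 to -2.05). The keratin gene Krt23, named after its values were seen, had log2 fold changes of -4.31 after VSG and -2.08 after Sham-WM, and VSG minus Sham-WM was -2.23 (adjusted p = 0.0852), which did not pass the test. Krt23 had 17.7 CPM in library 6F against 1.57 to 3.74 in the other Sham-Ad lib libraries, 0.510 to 2.51 in Sham-WM and 0.119 to 0.527 in VSG.

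The lipogenic lists gave no call in the mean. Fatty acid synthesis had 0 of 18 tested genes called by edgeR, with 1 higher and 1 lower at an unadjusted p under 0.05, where 7.44% and 7.29% of all genes tested were. Its median was -0.02 for the mean, made of 0.84 after Sham-WM and -0.91 after VSG, and 16 of the 18 genes were lower in VSG than in Sham-WM by the direct test, where 11.9% of all genes tested were. Scd1, the stearoyl-CoA desaturase, had 3509 to 7276 CPM in the Sham-Ad lib, 6691 to 13587 in the Sham-WM and 1227 to 3488 in the VSG libraries. Triglyceride synthesis had 0 of 12 called and a median of -0.24, with 4 lower and 1 higher at an unadjusted p; its most abundant members, Dgat2 and Lpin2, had log2 fold changes of -0.14 and -0.78 (adjusted p = 0.628 and 0.186).

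Cholesterol synthesis stood out by direction rather than by calls. All 23 tested genes had a log2 fold change below 0, where 53.2% of all genes tested were above 0, and the list's median was -0.49. In edgeR 0 genes were called, and 11 were lower at an unadjusted p under 0.05, where 7.29% of all genes tested were. Among the 11 were Hmgcs1 (-1.05), Msmo1 (-1.14) and Idi1 (-1.03). The medians were -0.10 after Sham-WM and -1.12 after VSG, and 10 of the 23 genes were lower in VSG than in Sham-WM by the direct test, against the same 11.9% of all genes tested. Hmgcs1, which makes the precursor of mevalonate, had log2 fold changes of -0.48 after Sham-WM and -1.62 after VSG. Ribosomal protein genes gave the opposite direction, with 38 of 38 above 0, a median of 0.28 and 0 called by edgeR. At an unadjusted p, 3 ribosomal protein genes were higher, where 7.44% of all genes tested were. Their medians were 0.04 after Sham-WM and 0.55 after VSG. For oxidative phosphorylation the median was 0.14, and 0 of 34 genes were called or passed an unadjusted p under 0.05.

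**Figure D4:**
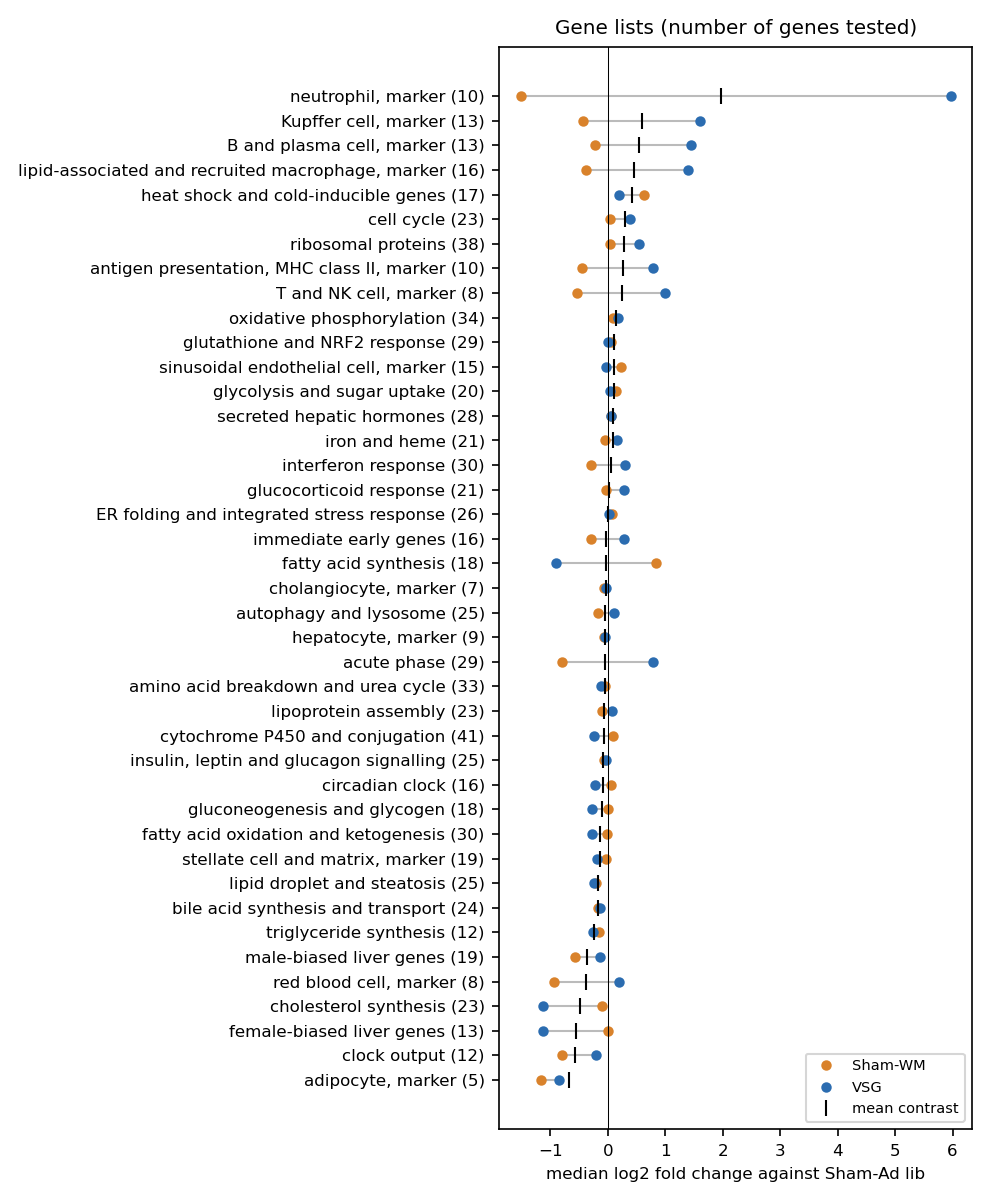
Median log2 fold change against Sham-Ad lib for each gene list with at least 5 tested genes (number in brackets) after Sham-WM, after VSG and for the mean of both. The treatments lie on opposite sides of 0 for fatty acid synthesis, acute phase, neutrophil and Kupffer cell lists, and the means of the neutrophil and Kupffer lists lie above 0.

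Immune and acute phase lists had medians on opposite sides of 0 in the treatments, and in the 4 immune lists given here 0 genes were called lower after Sham-WM. The neutrophil list, 10 of 12 genes tested, had medians of -1.51 after Sham-WM and 5.96 after VSG. Of the 10, 8 were called higher after VSG, where 0.467% of all genes tested were. Levels outside VSG were low, so members could pass the filter on low counts through the VSG libraries alone. The count of 8 therefore cannot be weighed against that share, and the median after Sham-WM rests on few counts. The summed level of all 12 genes of the list was 1.41 to 23.3 CPM in the Sham-Ad lib, 2.66 to 4.13 in the Sham-WM and 40.0 to 1165 in the VSG libraries. S100a8, a calcium-binding protein of neutrophils, had 7.85 to 260 CPM in VSG, and at most 4.13 CPM in any other library. For the Kupffer cell list the summed level was 395 to 808 CPM in the Sham-Ad lib, 297 to 465 in the Sham-WM and 893 to 2148 in the VSG libraries, and for recruited macrophages 95.4 to 301, 97.1 to 152 and 277 to 804. B and plasma cell genes summed to 17.0 to 49.1, 15.4 to 40.1 and 70.6 to 252 CPM. In the mean contrast, edgeR called 0 genes of these lists. In the same order, 2, 3, 2 and 3 were higher at an unadjusted p under 0.05, where 7.44% of all genes tested were. The acute phase list, 29 genes, had medians of -0.79 after Sham-WM, 0.78 after VSG and -0.04 in the mean. In the mean contrast 0 were called and 1 gene in each direction passed an unadjusted p. Taken singly, 6 of the 29 were called lower after Sham-WM and 2 higher after VSG, where 3.45% and 0.467% of all genes tested were. By the direct test 23 were higher in VSG than in Sham-WM, where 15% of all genes tested were.

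Hepatocyte markers, 9 of 10 tested, summed to 112119 to 126852 CPM in the Sham-Ad lib, 125141 to 152723 in the Sham-WM and 90764 to 130162 in the VSG libraries, and 0 passed either threshold. These defining markers of liver were present in all 12 libraries. Stellate, sinusoidal endothelial and cholangiocyte lists had medians of -0.14, 0.11 and -0.03, with 0 called by edgeR and 1, 1 and 0 genes past an unadjusted p. Red blood cell genes summed to 282 to 593, 152 to 315 and 142 to 738 CPM, with 0 called and 1 lower at an unadjusted p. The part of these cell types in the shared genes was not tested.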

How the data were processed

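Poly(A) RNA of liver was sequenced from directional libraries of 12 mice. The authors aligned reads to mm10 with TopHat2 2.1.1 and counted them on genes with featureCounts, and the deposited table holds whole-number counts for 46078 Ensembl genes with no normalization; the annotation release and the strand setting are not given in the sources used here. All columns were used (0 left out). Symbols and positions came from GENCODE M21, which matched 45229 genes.

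Libraries were grouped by the animal number that column and title share. Genes were kept by filterByExpr (minimum count 10, minimum total 15), which left 13054 genes and at least 99.88% of each library's counts. TMM factors lay between 0.879 and 1.04. Group means were fitted to all 12 libraries by edgeR 4.0.16 in R 4.3.3 (limma 3.58.1), and quasi-likelihood tests, two-sided, were run on the mean of VSG and Sham-WM against Sham-Ad lib, on each treatment and on VSG minus Sham-WM. P-values were adjusted by Benjamini-Hochberg over all genes tested and called at 0.05. The joint test took the larger of the treatments' p-values where their signs matched. Log2 CPM used a prior count of 2. Intervals are 95%. The mean contrast was tested on simulated counts in which the changed genes had the same fold change in both treatments. The rule for a shared change, the joint test and VSG minus Sham-WM were not tested in this way. P-values measure the spread between 4 mice a group, and floors and counts cover counting error only.

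Per direction, the 12 shared genes with the largest smaller change of the treatments and a mean log2 CPM of at least 1 were named, leaving out 2 low genes that rose and 1 predicted gene that fell; the 8 eligible higher genes were filled up with 4 at an unadjusted p under 0.05, and 1 of the 12 lower genes is not reported here. Of each of 42 lists, up to 4 called members, or the most abundant, were also named. Comparison members and lists were chosen with earlier results of these data known. Alternatives were DESeq2 1.42.0 and its size factors, upper quartile factors, other filters on low counts, RUVs and RUVr factors (k = 2, written out from their definitions), 1 group of 8 libraries, the other label field and leaving out each library.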

Additional observations from a re-analysis of the deposited data

Results flagged for a closer look

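For 7 of the 23 named genes, the changes after VSG and Sham-WM differed by edgeR's direct test at an adjusted p under 0.05. Of all genes tested, 26.9% passed the same test. VSG minus Sham-WM on the log2 scale was -0.46 for Ddx39, -1.87 for Chka, -1.05 for Itga5, -0.44 for Tm6sf2, -0.29 for Mapre1 and -2.31 for Cyp26a1, so that the rise, or for Cyp26a1 the higher value that did not pass the test, was larger after Sham-WM. It was 0.52 for Slc23a2, whose fall was larger after Sham-WM.

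In 4 of 69 groups of 4 libraries of the named genes, 1 library stood far from the other 3 by Dixon's 95% criterion, which chance meets in about 1 group in 20. Hdhd3 had a log2 CPM of 2.99 in the Sham-Ad lib library 6F, against 3.30 to 3.37 in the others. Unc5b had 4.27 in the same library, against 3.44 to 3.56. Apoa4 had 8.49 in the Sham-WM library 2F, against 8.06 to 8.09. Mcm8 had 1.21 in the Sham-Ad lib library 10F, against 1.94 to 2.05.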

How the results depend on the processing

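Most counts moved with the processing. Against 86 genes for the mean, DESeq2 called 398 (84 of the 86 among them), edgeR without a filter on low counts 137, with 2 RUVs factors 174 and with 2 RUVr factors 1221. Shared genes, 36 in the report, numbered 93 with DESeq2 and 124 with RUVr. The joint test called 12 genes with DESeq2 and 1 with RUVr factors. VSG minus Sham-WM, 3509 genes, gave 518 with RUVs and 5492 with RUVr factors. Treating the 8 weight-loss libraries as 1 group, so that the treatments' difference counted as spread, gave 0 genes for the mean and 0 shared, with 1261 at an unadjusted p under 0.05. DESeq2 size factors, upper quartile factors and a minimum of 10 counts in every library gave 88, 82 and 80 genes. Leaving out 1 library gave 13 (without 6F) to 1.1e+02 (without 11F, rounded) genes for the mean, 4 (without 6F) to 55 (without 8F) shared genes, 0 genes in the joint test in each of the 12 fits and 2196 to 3868 (without 16F and 18F) for VSG minus Sham-WM; shared genes numbered 17 without 2F, 15F or 16F, 22 without 1F and 6 without 3F. The cause of these shifts was not tested.

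Grouping by the other label field called 0 genes for the mean (741 at an unadjusted p), 0 shared and 0 for VSG minus Sham-WM, and turned the direction of the following genes. Log2 fold changes of the mean were then Cfd 1.05, Hectd2os 0.69, Unc5b 0.39, Txnip 0.35, Apoa4 0.30, Mcm8 0.62, Gbp10 0.072, Tlr5 0.088, Tppp 0.0072, Lrit1 0.16, Slc23a2 0.28, Cidec 1.34, Fitm2 0.086, Pnpla2 0.28, Cpt1a 0.35, Nr1d1 1.31, Bhlhe41 0.33, Ciart 0.27, Dbp 0.35, Tef 0.068, Gabarapl1 0.44, Npc1 0.074 and Map1lc3b 0.15, and Dynll1 -0.13, Slc16a6 -0.50, Lamtor1 -0.12, Chka -0.46, Itga5 -0.54, Tm6sf2 -0.35, Mapre1 -0.064, Ppp1r3b -0.28, Slc51b -1.05, Arntl -1.41, Hsp90aa1 -0.47, Stip1 -0.35 and Tfrc -1.28. The cause was not tested beyond the changed assignment of libraries.

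No paired analysis was possible because the animal numbers are unique and the groups share none. Each group had 4 libraries, and the spread was larger in VSG. Genes at few counts, such as Slc51b and Cfd after weight loss, carry counting error. Reads were counted without molecular identifiers. An effect that followed the library index blocks cannot be told apart from treatment.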

Other observations

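Genes of several further lists gave single values beside the shared set. Of 24 tested bile acid genes, Slc51b was called higher, where 0.207% of all genes tested were. Cyp2c70, the mouse enzyme of muricholic acid synthesis, was higher only at an unadjusted p, with log2 fold changes of 0.88 after Sham-WM and 0.63 after VSG (adjusted p of the mean 0.074). Among 29 glutathione and NRF2 genes edgeR called 0. At an unadjusted p under 0.05, 5 were higher and 2 lower, where 7.44% and 7.29% of all genes tested were. G6pdx, which opens the pentose phosphate pathway, had log2 fold changes of 1.07 after Sham-WM and 1.34 after VSG (adjusted p of the mean 0.175), and the conjugating enzyme Gstm2 had -0.77 and -0.59 (adjusted p 0.0713).

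Of 25 insulin, leptin and glucagon signalling genes edgeR called 0. At an unadjusted p, 2 were higher and 4 lower, where 7.44% and 7.29% of all genes tested were. Insr, the insulin receptor, had log2 fold changes of -0.38 after Sham-WM and -0.37 after VSG (adjusted p of the mean 0.229), and the transcription factor Foxo3 had -0.39 and -0.53 (adjusted p 0.192). Ppp1r3g, a glycogen-targeting phosphatase subunit, had -3.12 and -1.71 (adjusted p 0.0713), and Slc2a2, the main hepatic glucose transporter, had -0.43 and -0.46 (adjusted p 0.209). Of 28 secreted hepatic factors 0 were called. At an unadjusted p, 5 were higher and 2 lower, where 7.44% and 7.29% of all genes tested were. Igfbp2, a binding protein of insulin-like growth factors, had 0.51 and 0.79 (adjusted p 0.327), and Fgf21 had -0.48 and -1.55 (adjusted p 0.242). These genes were named after their values were seen.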
